A study of Mus musculus with 10 samples.

Results

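Expression of 9 genes of the AP-1 family of transcription factors, *Fos*, *Fosb*, *Fosl1*, *Fosl2*, *Jun*, *Junb*, *Jund*, *Atf3* and *Maff*, was examined in OP9 stromal cells grown as reaggregates or as flat cultures. The genes were chosen by name with earlier results of these data known, so counts among them beside shares of all genes are descriptive only. Each was found once among the 26888 genes with deposited values. All 9 exceeded 0.5 RPM (reads per 1e6 reads on genes) in at least 1 library, as did 16933 genes in all, and these were tested. AP-1 factors are basic leucine zipper proteins that bind DNA as dimers. FOS proteins pair with JUN proteins, JUN proteins also pair with each other, and ATF3 and the small MAF protein MAFF belong to the same superfamily and pair with some of them. Several of these genes are immediate early genes, transcribed within minutes of a stimulus through MAP kinases and serum response factor, and in skeletal stroma the family is known for its part in bone formation and in the control of matrix proteases.

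The RNA-seq data comprised 10 libraries, 6 of reaggregates and 4 of flat submersed cultures. OP9 is labelled as a stromal line of foetal calvaria from (C57BL/6xC3H)F2-op/op mice, which carry a mutation of the macrophage growth factor M-CSF. For reaggregation, cells were trypsinised, pelleted by centrifugation and kept for 48 h on filters at the liquid-gas interface, without added cytokine in reaggregates 1, 3 and 5 and with IL-3, labelled as 200 µg/µl, in reaggregates 2, 4 and 6. Reaggregates were then dissociated with collagenase and dispase before RNA extraction, a step that the methods do not give for flat cultures, so enzymatic dissociation and the form of culture cannot be told apart. Flat cultures 2 and 4 carry the label of the de Bruijn laboratory, and the labels name no source for flat cultures 1 and 3 or for the reaggregates. The methods give the groups of A. Medvinsky and M. de Bruijn as those that had kept the flat culture cells before, and the paper gives the calvaria as those of newborn mice. Depth, estimated from the RPM value of 1 read, was 7.34 to 9.42 M reads on genes per library (M, 1e6), and values below 0.319 to 0.409 RPM rest on fewer than 3 reads. Nothing in the labels says that replicates came from separate cultures, and consecutive reaggregates resembled each other (root mean square difference in log2(RPM + 0.5) of 0.28 to 0.29, against 0.53 to 0.76 for the 12 other pairs), so p-values measure the spread between these libraries. In bulk RNA, fewer cells of a type and less RNA per cell cannot be told apart.

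The libraries carried stromal transcripts. All 8 stromal markers examined exceeded 0.5 RPM, and their sum was between 14793 and 22124 RPM in reaggregates and 5939, 8939 and 6421 RPM in flat cultures 1, 2 and 4, against 12305 RPM in flat culture 3. *Col1a2* was the most abundant of them except in flat cultures 2 and 4, where *Cxcl12* was, at 4560 and 3990 RPM. The sum does not stand for each marker, as *Kitl* was called lower in reaggregates and *Mcam* and *Cxcl12* were not called. *Ptprc* and *Emr1*, which define blood cells and macrophages, were listed at 0 in all 10 libraries, and the 7 markers of these cells summed to between 17.3 and 58.3 RPM. The 5 endothelial markers summed to at most 1.09 RPM, with *Pecam1* the most abundant, and the 4 epithelial markers to at most 0.48 RPM, with *Epcam* and *Krt18* listed at 0. The 5 adipocyte markers summed to between 90.9 and 133 RPM in reaggregates, 116 and 170 RPM in flat cultures 1 and 3, and 1020 and 1126 RPM in flat cultures 2 and 4, where *Fabp4* was the most abundant. *Fabp4*, *Pparg* and *Cebpa* made up nearly all of this sum and were called lower in reaggregates. *Adipoq* and *Plin1*, at most 0.768 and 1.43 RPM in any library, were not called. The part of these marker differences in the values below was not tested.

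*Fos*, *Fosb*, *Fosl2*, *Jun*, *Jund* and *Atf3* were higher in reaggregates than in flat cultures and *Fosl1* was lower, where a call needed a 2-fold difference and an adjusted p from limma no greater than 0.05. *Atf3* and *Fosb* showed the widest differences, while *Junb* missed the fold change and *Maff* missed both the fold change and the test. Thus 6 of 9 genes were up-regulated, where 7.32% of all genes tested were, and 1 of 9 was down-regulated, where 6.53% were. These calls treat reaggregates as independent. With consecutive reaggregates as a random block 4 of 9 were up-regulated, without *Fos* and *Jun* (limma adjusted p = 0.0622 and 0.0732), and 1 of 9 down-regulated, where 4.54% and 4% of all genes were, or 8.54% either way. With them averaged 1 of 9 was up-regulated, where 1.90% of all genes were. The median log2 fold change of the 9 genes was 1.54, against 0.04 over all genes. Flat culture 3 was the highest flat culture for 8 of the 9 genes, all but *Fosl1*, and is given apart for each of them. Leaving it out therefore raises the log2 fold change of those 8 genes by construction. Fold changes are on the scale of log2(RPM + 0.5), where the added 0.5 shrinks the change of genes of low RPM.

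**Figure D1:**
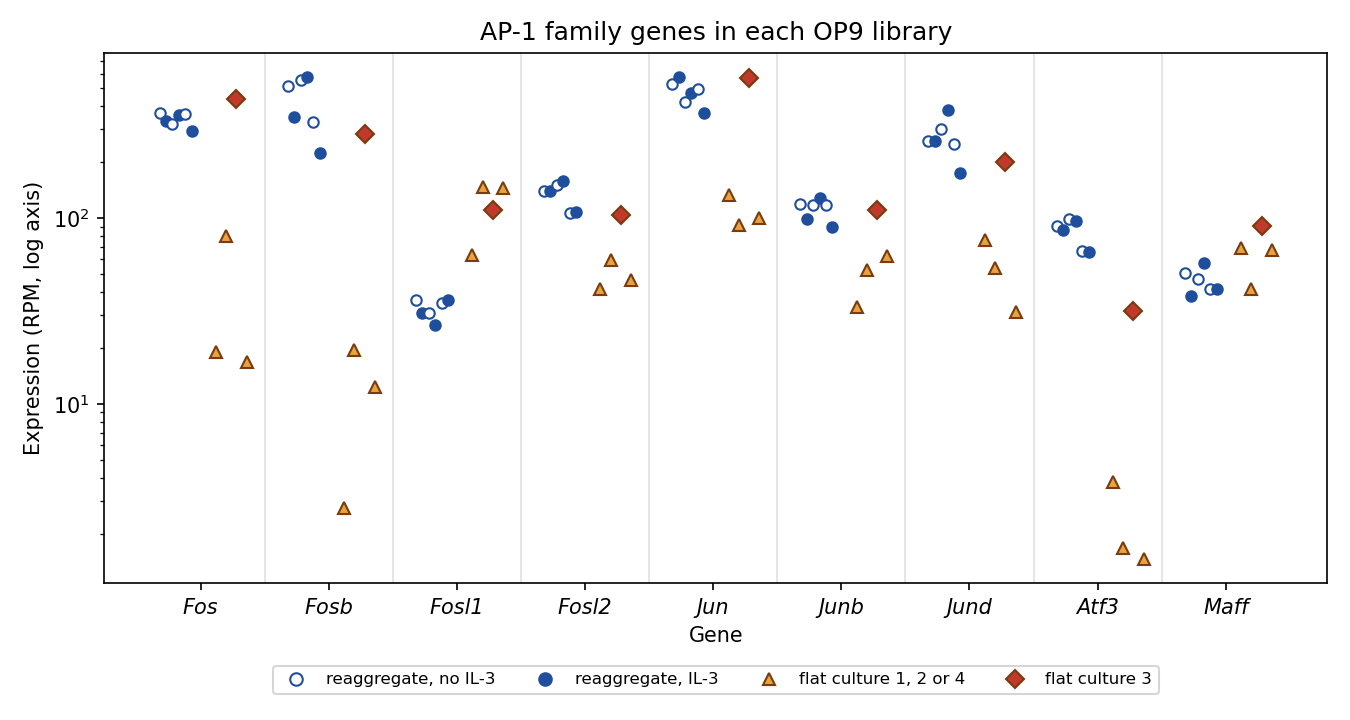
Expression of the 9 genes in RPM on a log axis, 1 point per library, with reaggregates as circles (filled where IL-3 was added), flat cultures 1, 2 and 4 as triangles and flat culture 3 as a diamond. For *Atf3* the triangles lie between 1.46 and 3.80 RPM, the diamond at 31.5 RPM and the circles between 65.9 and 98.9 RPM, whereas for *Fosl1* all circles lie below all flat cultures.

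FOS proteins cannot form stable dimers with themselves and depend on a JUN partner. *Fos*, the prototype immediate early gene (listed as ENSMUSG00000021250, plus strand of chromosome 12 from 86814840 to 86818223 in NCBIM37/mm9, 4 exon blocks), ranged from 294 to 369 RPM in reaggregates with a median of 346 RPM. Its values were 19.1, 79.8 and 16.9 RPM in flat cultures 1, 2 and 4 and 436 RPM in flat culture 3. Flat culture 3 thus exceeded every reaggregate, the other flat cultures lay far below all of them, and the groups overlapped only through that library. Reaggregates averaged 340 ± 29.5 RPM (SD, n = 6), flat cultures 138 ± 201 RPM (SD, n = 4), and the log2 fold change was 2.53 (SE 0.722, limma adjusted p = 0.0232). Without flat culture 3 it was 3.49 (SE 0.394, limma adjusted p = 0.000174). The call was lost without flat culture 1 or 4 and with consecutive reaggregates averaged, and the adjusted p ranged from 0.000174 to 0.169 over the alternatives.

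*Fosb* (ENSMUSG00000003545, minus strand of chromosome 7 from 19888070 to 19895394), which encodes a close relative of FOS and a truncated form without its activation domain, varied more among reaggregates. It ranged from 223 to 572 RPM in reaggregates with a median of 432 RPM (as deposited, the single values were 513, 352, 556, 572, 331 and 223 RPM). In flat cultures 1, 2 and 4 it was at 2.76, 19.6 and 12.4 RPM, and in flat culture 3 at 284 RPM. Flat culture 3 lay within the range of the reaggregates, above reaggregate 6, and the value of flat culture 1 rested on about 24 reads. The log2 fold change was 4.18 (SE 0.919, limma adjusted p = 0.00729), and 5.41 without flat culture 3 (SE 0.503, limma adjusted p = 6.98e-05). Averaging consecutive reaggregates ended the call, and the adjusted p ranged from 8.97e-06 to 0.0976 over the alternatives.

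*Fosl1*, which encodes FRA1, a FOS protein that lacks a strong activation domain and is itself a known target of AP-1, went the other way. It ranged from 26.6 to 36.2 RPM in reaggregates with a median of 32.8 RPM. Flat cultures 1, 2 and 4 held 63.3, 147 and 145 RPM, and flat culture 3 held 110 RPM. Every reaggregate was below every flat culture, and here flat culture 3 lay among the other flat cultures. Reaggregates averaged 32.5 ± 3.82 RPM (SD, n = 6), flat cultures 116 ± 39.2 RPM (SD, n = 4), and the log2 fold change was −1.75 (SE 0.224, limma adjusted p = 0.000406). *Fosl1* (ENSMUSG00000024912, plus strand of chromosome 19 from 5447703 to 5455945) overlaps at its 3′ end a gene on the minus strand, listed as AC122861.3 (ENSMUSG00000042878, 5453163 to 5457549). That gene was at 25.3 to 29.0 RPM in reaggregates and 42.2, 80.2, 51.1 and 76.8 RPM in flat cultures 1 to 4, and since no use of strand was stated for the counting, reads from the shared stretch cannot be told apart.

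*Fosl2* (ENSMUSG00000029135, plus strand of chromosome 5 from 32438845 to 32460204), which encodes the related protein FRA2, ranged from 107 to 158 RPM in reaggregates with a median of 140 RPM. It was at 41.4, 59.4 and 46.5 RPM in flat cultures 1, 2 and 4 and at 104 RPM in flat culture 3. All reaggregates were above all flat cultures, although flat culture 3 lay only just below reaggregates 5 and 6, at 107 and 108 RPM. The difference was the smallest among the genes called higher, at 1.17 in log2 (SE 0.239, limma adjusted p = 0.00534), and 1.44 without flat culture 3. Without flat culture 1 the difference fell just short of 2-fold and the test was passed (limma adjusted p = 0.0158), while averaging consecutive reaggregates left the fold change as it was and ended the call (limma adjusted p = 0.0736). The adjusted p ranged from 0.000243 to 0.0768 over the alternatives.

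JUN proteins supply the partner that FOS proteins need. *Jun*, the strongest activator among them (ENSMUSG00000052684, minus strand of chromosome 4 from 94715725 to 94718913, a gene without introns), ranged from 370 to 574 RPM in reaggregates with a median of 484 RPM. Flat cultures 1, 2 and 4 held 133, 91.7 and 99.8 RPM and flat culture 3 held 569 RPM. Only reaggregate 2 exceeded flat culture 3, whereas the remaining flat cultures were below all reaggregates. The log2 fold change was 1.54 (SE 0.427, limma adjusted p = 0.0208), and 2.14 without flat culture 3 (SE 0.175, limma adjusted p = 3.67e-05). *Jun* was not called without flat culture 1, 2 or 4 or with consecutive reaggregates averaged, and its adjusted p ranged from 8.59e-06 to 0.251 over the alternatives. A noncoding gene on the opposite strand, listed as AL772318.1, overlaps its 5′ end and was at most 14.0 RPM in any library.

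*Junb* (ENSMUSG00000052837, minus strand of chromosome 8 from 87500811 to 87502617), which encodes a weaker activator that can oppose JUN, ranged from 89.4 to 128 RPM in reaggregates with a median of 118 RPM. It was at 33.4, 52.8 and 62.7 RPM in flat cultures 1, 2 and 4 and at 110 RPM in flat culture 3. Flat culture 3 lay within the reaggregates, and the groups did not overlap without it. With all libraries the log2 fold change of 0.91 (95% interval 0.33 to 1.48, limma adjusted p = 0.0256) missed the required 2-fold difference, and without flat culture 3 it passed (95% interval 0.77 to 1.64, limma adjusted p = 0.00113).

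*Jund*, the member of the JUN group known for its steady expression in resting cells (ENSMUSG00000071076, plus strand of chromosome 8 from 73221638 to 73224515), ranged from 175 to 382 RPM in reaggregates with a median of 261 RPM. Its level was 75.8, 53.6 and 31.2 RPM in flat cultures 1, 2 and 4 and 200 RPM in flat culture 3. Flat culture 3 exceeded only reaggregate 6. The log2 fold change was 1.89 (SE 0.411, limma adjusted p = 0.00700), and 2.39 without flat culture 3. With consecutive reaggregates averaged *Jund* was not called, and its adjusted p ranged from 6.52e-05 to 0.0934 over the alternatives. A gene listed as AC162446.1 (ENSMUSG00000080058, 73223437 to 73223979) lies wholly within *Jund* on the opposite strand, so reads of the shared stretch cannot be assigned to either strand.

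*Atf3*, a stress-induced gene whose protein represses as a homodimer and pairs with JUN proteins (ENSMUSG00000026628, minus strand of chromosome 1 from 192994175 to 193007219), ranged from 65.9 to 98.9 RPM in reaggregates with a median of 88.3 RPM. Flat cultures 1, 2 and 4 held 3.80, 1.67 and 1.46 RPM, or about 33, 14 and 12 reads, and flat culture 3 held 31.5 RPM. Every reaggregate exceeded every flat culture, and flat culture 3 was nearer to the reaggregates than to the other flat cultures on a log scale. Reaggregates averaged 84.0 ± 14.5 RPM (SD, n = 6), flat cultures 9.61 ± 14.6 RPM (SD, n = 4), and the log2 fold change was 4.08 (SE 0.634, limma adjusted p = 0.00124), and 4.99 without flat culture 3 (SE 0.256, limma adjusted p = 4.97e-06).

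*Maff* (ENSMUSG00000042622, plus strand of chromosome 15 from 79177971 to 79189502) encodes a small MAF protein, which binds DNA but has no activation domain of its own. It ranged from 38.1 to 57.2 RPM in reaggregates with a median of 44.3 RPM, and flat cultures 1, 2 and 4 held 68.7, 41.4 and 67.5 RPM and flat culture 3 held 90.3 RPM. Flat culture 2 lay among the reaggregates and the other flat cultures above them. The log2 fold change of −0.50 (95% interval −0.95 to −0.05) did not pass (limma adjusted p = 0.0848).

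Over the 9 genes, all reaggregates lay above all flat cultures for 2, *Fosl2* and *Atf3*, where 7.80% of all genes did so, and below them for 1, *Fosl1*, where 11.4% did. When flat culture 3 was left out, all reaggregates lay above for 7 of 9 genes, against 17.6% of all genes, and below for 1, against 17.7%. Without that library 7 of the 9 genes were up-regulated and 1 was down-regulated, where 12.5% and 8.99% of all genes were, or 21.5% either way. With consecutive reaggregates averaged, as 3 samples, only *Atf3* was up-regulated and only *Fosl1* down-regulated (limma adjusted p = 0.0386 and 0.0210), where 1.90% and 2.53% of all genes were, or 4.43% either way. With both changes together, a setting added after the values were seen, the counts were again 7 and 1 of 9, where 8.81% and 6.61% of all genes were called. Flat culture 3 was the highest flat culture for 8 of the 9 genes, so leaving it out favours higher calls among them. The counts without it and the shares of all genes therefore do not compare like with like.

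**Figure D2:**
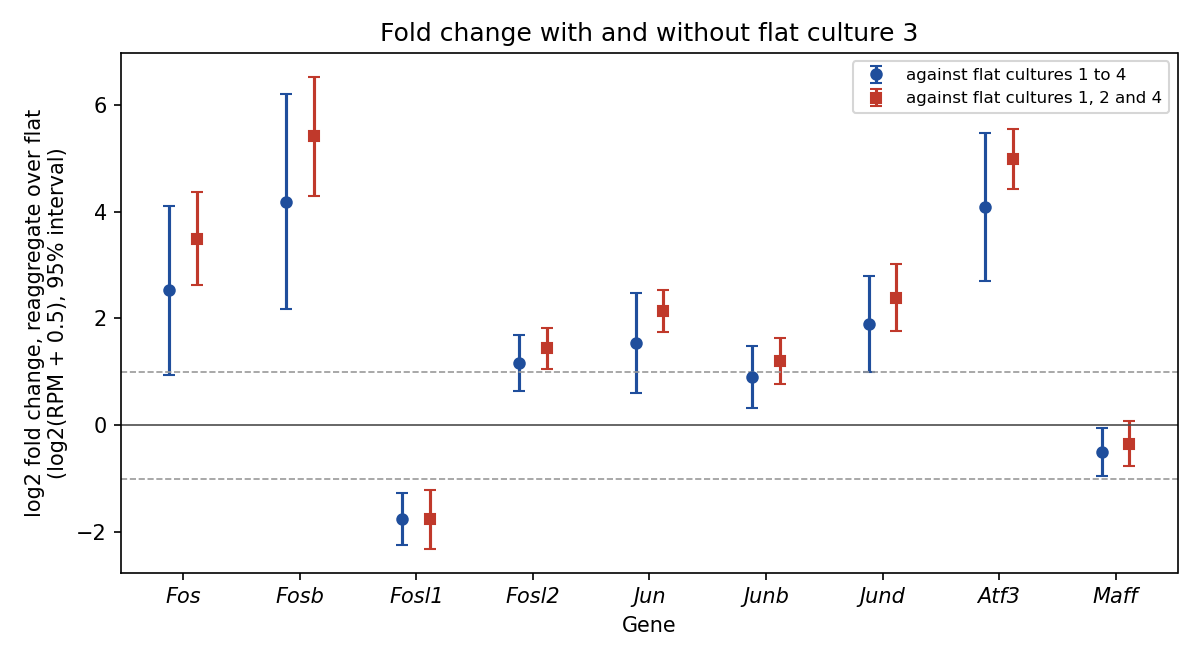
Log2 fold change of each gene between reaggregates and flat cultures on the scale of log2(RPM + 0.5), with 95% intervals from limma, against all flat cultures (circles) and against flat cultures 1, 2 and 4 (squares); dashed lines mark a 2-fold difference. Leaving out flat culture 3 moved *Fos* from 2.53 to 3.49 and *Fosb* from 4.18 to 5.41, and left *Fosl1* at about −1.76.

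Flat culture 3 differed from flat culture 1, which also has no source label, by widely different ratios between the genes. In RPM it held 103 times the *Fosb*, 22.8 times the *Fos*, 8.29 times the *Atf3* and 4.28 times the *Jun* of flat culture 1. The ratios were 3.29 for *Junb*, 2.64 for *Jund*, 2.51 for *Fosl2*, 1.74 for *Fosl1* and 1.31 for *Maff*. Flat culture 3 was above the range of the reaggregates for 3 genes (*Fos*, *Fosl1* and *Maff*), within it for 4 (*Fosb*, *Jun*, *Junb* and *Jund*) and below it for 2 (*Fosl2* and *Atf3*). Flat cultures 2 and 4 were closer to each other for all genes but *Maff*, with ratios of flat culture 4 to 2 from 0.212 for *Fos* to 1.63 for *Maff*. Over all genes tested, flat cultures 1 and 3 differed by a root mean square of 0.72 in log2(RPM + 0.5), and flat cultures 2 and 4 by 0.51.

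Among the reaggregates, *Fos* varied least and *Fosb* most, with coefficients of variation of 8.70% and 33.6%. Reaggregates 5 and 6 held the lowest values of *Fosl2*, at 107 and 108 RPM against at least 140 RPM in reaggregates 1 to 4, and of *Atf3*, at 66.6 and 65.9 RPM against at least 86.5 RPM. Reaggregate 6 was the lowest for *Fos*, *Fosb*, *Jun*, *Junb* and *Jund* as well. *Fosl1* had its highest values, 36.2 RPM each, in reaggregates 1 and 6.

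Levels of different genes can be compared only per length, and RPM were therefore divided by the length of the annotated exons in kb. In reaggregates the order of mean level in RPM per kb was *Jun* (149 ± 23.2), *Fos* (144 ± 12.5), *Fosb* (113 ± 38.0), *Jund* (94.5 ± 23.6), *Junb* (62.0 ± 8.01), *Atf3* (42.4 ± 7.29), *Fosl2* (22.9 ± 3.70), *Maff* (21.7 ± 3.33) and *Fosl1* (19.1 ± 2.24; SD, n = 6 throughout). Ranges of neighbours in this order overlapped, except that every value of *Atf3*, from 33.2 RPM per kb, was above every value of *Fosl2*, up to 27.0 RPM per kb. In flat cultures 1, 2 and 4 the order was *Fosl1* (69.4 ± 28.0), *Jun* (33.9 ± 6.86), *Maff* (27.9 ± 7.28), *Junb* (27.5 ± 8.25), *Jund* (18.6 ± 7.75), *Fos* (16.4 ± 15.2), *Fosl2* (8.39 ± 1.58), *Fosb* (3.09 ± 2.25) and *Atf3* (1.16 ± 0.65; SD, n = 3 throughout). Here only *Fosl2* and *Fosb* were neighbours without overlap, at 7.07 or more and 5.23 or less RPM per kb. By group means *Fosl1* thus stood last in reaggregates and first in these flat cultures, although *Jun* exceeded it in flat culture 1, at 41.7 against 37.1 RPM per kb, and *Maff* or *Fosl2* lay below it in reaggregates 2, 5 and 6. Flat culture 3 had *Fos* and *Jun* on top, at 185 and 178 RPM per kb, and *Fosl1* in the middle, at 64.4 RPM per kb.

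*Fosl1* made up 4.50% to 9.50% of the summed RPM per kb of the 4 FOS genes in reaggregates. Its share was 70.0%, 63.6% and 82.2% in flat cultures 1, 2 and 4 and 18.8% in flat culture 3. *Fos* and *Fosb* together took most of the sum in every reaggregate and in flat culture 3, with shares of 54.0% and 22.1% in the latter. The sum itself was 224 to 348 RPM per kb in reaggregates, 53.0, 135 and 103 RPM per kb in flat cultures 1, 2 and 4, and 343 RPM per kb in flat culture 3. In the JUN group *Jun* held 42.0% to 55.3% of the sum in reaggregates, 48.2%, 37.5% and 40.7% in flat cultures 1, 2 and 4 and 57.8% in flat culture 3. *Junb* held 16.9% to 21.9% in reaggregates and 21.4%, 38.1% and 45.2% in flat cultures 1, 2 and 4, and thus the largest share in flat cultures 2 and 4, against 19.7% in flat culture 3. *Jund* held 26.9% to 37.8% in reaggregates, 30.4%, 24.3% and 14.1% in flat cultures 1, 2 and 4 and 22.5% in flat culture 3. These shares were not tested.

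**Figure D3:**
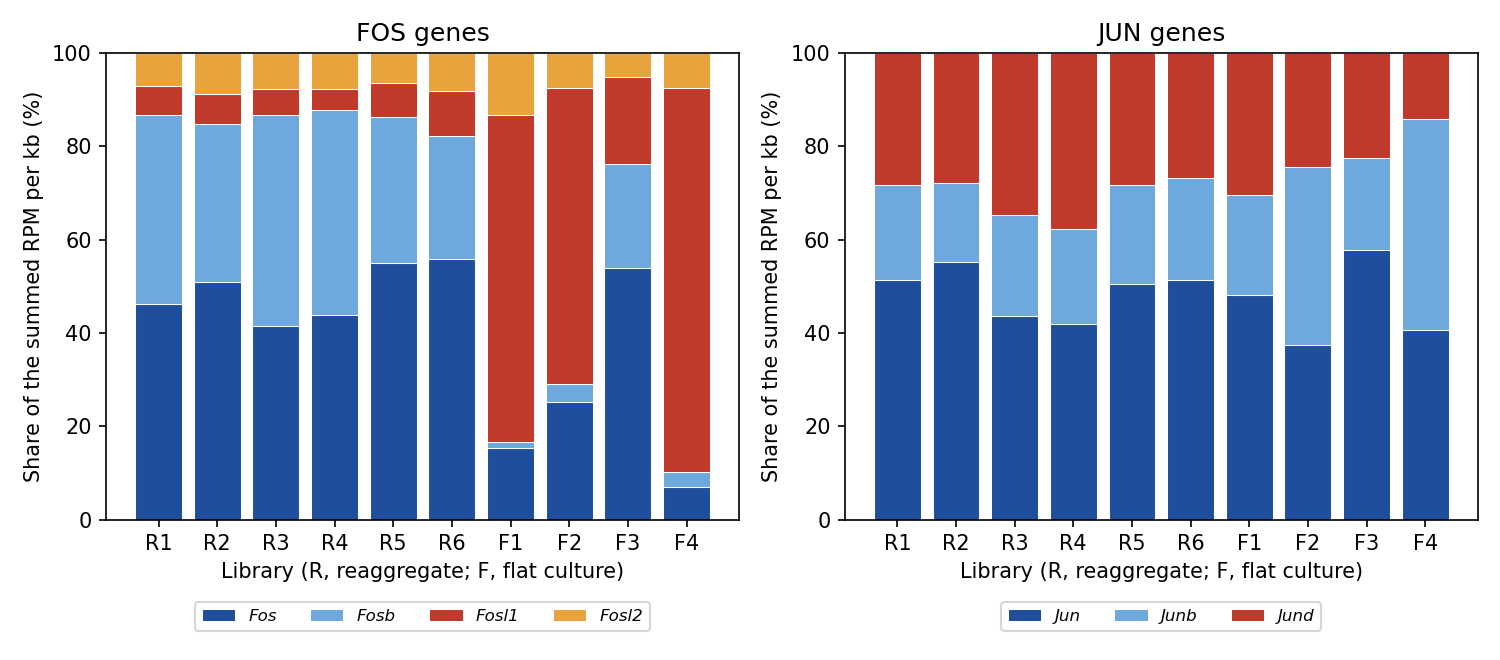
Share of each gene in the summed RPM per kb of exons of the FOS genes (left) and the JUN genes (right), in percent, with 1 bar per library (R, reaggregates 1 to 6; F, flat cultures 1 to 4). *Fosl1* takes 63.6% to 82.2% in F1, F2 and F4, 18.8% in F3 and at most 9.50% in reaggregates.

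The addition of IL-3, a cytokine for blood progenitors, was compared within the reaggregates. None of the 9 genes was called between the 3 reaggregates with and the 3 without it (limma, 0 genes called of 16933, or 0%), 0 of the 9 had an unadjusted p of at most 0.05, and 68 of all genes, or 0.402%, did. The log2 differences, with minus without IL-3, lay between −0.36 for *Fosb* (95% interval −1.27 to 0.56) and 0.03 for *Fosl2* (95% interval −0.45 to 0.50), so that a 2-fold difference lay outside the interval of *Fosl2* but not of *Fosb*. The *Fosb* difference in this fit was −0.7 without reaggregate 4 and −0.021 without reaggregate 6. These fits did not pair neighbouring reaggregates, and each left the neighbour of the omitted library unmatched. Between neighbours, the ratios of *Fosb* with to without IL-3 were 0.686, 1.03 and 0.674. With consecutive reaggregates as a block the interval of *Fosb* was −0.66 to −0.05, and it was the 1 gene of the 9 with an unadjusted p of at most 0.05, where 3.34% of all genes had it (limma adjusted p = 0.982). *Atf3* alone was lower with IL-3 in all 3 neighbouring pairs, with ratios of 0.959, 0.973 and 0.989. These differences were small, and with the block its log2 difference was −0.038 (95% interval −0.155 to 0.079). The share of all genes with the same direction in all pairs was not counted.

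Between flat cultures with and without the de Bruijn label, 0 of the 9 genes were called by limma, where 5.70% of all genes were, 1.82% higher and 3.87% lower with the label. An unadjusted p of at most 0.05 was reached by 2 of the 9, *Jund* and *Atf3*, and by 23.0% of all genes, a similar share. The log2 differences, labelled minus unlabelled, were −1.58 for *Jund* (95% interval −2.94 to −0.22, limma adjusted p = 0.164) and −2.51 for *Atf3* (95% interval −4.88 to −0.14, limma adjusted p = 0.198). Without flat culture 3 they were −0.88 for *Jund* and −1.06 for *Atf3*, and without flat culture 1 they were −2.275 and −3.956. Against flat cultures 1 and 3 alone, *Atf3* was up-regulated and *Fosl1* down-regulated in reaggregates (limma adjusted p = 0.0144 and 0.00401), where 3.70% and 6.17% of all genes were, or 9.87% either way. Against flat cultures 2 and 4 alone, 6 of the 9 genes were up-regulated and *Fosl1* was down-regulated, where 15.2% and 10.5% of all genes were, or 25.7% either way. These comparisons share the reaggregates.

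Partners, upstream factors and targets were followed in lists fixed by name. The lists were also chosen with earlier results known, so their counts beside shares of all genes are descriptive only. Of 15 other basic leucine zipper genes that can pair with AP-1 factors, 11 were tested, 5 were up-regulated and 0 down-regulated (7.32% and 6.53% of all genes), with a median log2 fold change of 0.92 against 0.04 over all genes. *Maf*, a large MAF factor, ranged from 198 to 374 RPM in reaggregates and was at 56.0, 33.6 and 23.3 RPM in flat cultures 1, 2 and 4 and 98.9 RPM in flat culture 3 (log2 fold change 2.53, limma adjusted p = 0.000714). *Bach1*, a repressor that pairs with small MAF proteins, ranged from 131 to 169 RPM, against 44.2, 23.3, 21.4 and, in flat culture 3, 61.8 RPM (log2 fold change 2.15, limma adjusted p = 0.000328). The other calls were *Bach2* (log2 fold change 1.74), *Atf7* (log2 fold change 1.63) and *Mafg* (log2 fold change 1.38), the last named to complete the count after the values were seen. With consecutive reaggregates averaged, 3 of the 5 passed (1.90% of all genes), and without flat culture 3 again 5 of the 11 did (12.5% of all genes).

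Of 15 MAP kinase and MAP kinase kinase genes tested, which convey signals to AP-1, 1 was up-regulated, *Mapk12* (p38γ), and 0 were down-regulated, where 7.32% and 6.53% of all genes were, with a median of −0.11. *Mapk12* ranged from 20.4 to 70.1 RPM in reaggregates and was at 23.4, 5.25 and 6.32 RPM in flat cultures 1, 2 and 4 and 27.8 RPM in flat culture 3, so the groups overlapped. *Mapk3*, which encodes ERK1, was not called, with a log2 fold change of −0.29. Among 10 MAP kinase phosphatase genes, which switch these kinases off, only *Dusp6* was called (6.53% of all genes were called lower). It was lower in reaggregates at 5.44 to 28.2 RPM than in flat cultures 1, 2 and 4 at 37.5, 47.3 and 43.8 RPM, and highest in flat culture 3 (log2 fold change −1.78, limma adjusted p = 0.00889). *Dusp1* and *Dusp5* were not called, with log2 fold changes of −0.52 and −1.27. Of 8 genes for serum response factor, its cofactors and CREB, 1 was up-regulated (7.32% of all genes), *Elk4* (log2 fold change 1.11, limma adjusted p = 0.00494), while *Elk3* and *Mkl1*, at −0.32 and 0.79, were not called. Without flat culture 3 *Mkl1* was called (log2 fold change 1.15, limma adjusted p = 0.00163), and the counts of the kinases, phosphatases and these factors were 2 higher, 2 lower and 2 higher, where 12.5% of all genes were called higher and 8.99% lower. Averaging consecutive reaggregates ended the calls of *Mapk12* and *Elk4* (limma adjusted p = 0.148 and 0.0627) and kept that of *Dusp6* (limma adjusted p = 0.0499).

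Genes that textbooks give as AP-1 targets went in both directions. Of 14 tested, 2 were up-regulated and 5 down-regulated, where 7.32% and 6.53% of all genes were, and their median was −0.98. The up-regulated genes encode matrix proteases. *Mmp13*, a collagenase, ranged from 32.8 to 133 RPM in reaggregates and was at 1.15, 0.358 and 0.121 RPM in flat cultures 1, 2 and 4 and 3.59 RPM in flat culture 3 (log2 fold change 5.78, limma adjusted p = 0.000104). *Mmp9*, a gelatinase, ranged from 11.3 to 40.4 RPM, against 0.921, 0 and 0.121 RPM and, in flat culture 3, 5.99 RPM (log2 fold change 4.15, limma adjusted p = 0.00129). *Ccnd1*, which encodes cyclin D1, was lower in reaggregates, at 180 to 276 RPM, than in flat cultures 1, 2 and 4, at 880, 1960 and 1810 RPM, and flat culture 3, at 1090 RPM (log2 fold change −2.64, limma adjusted p = 6.62e-05). The chemokine gene *Ccl2* was lower as well (log2 fold change −2.35), and the other calls, named to complete the count after the values were seen, were *Timp1*, *Plaur* and *Hbegf*. Averaging consecutive reaggregates left 2 up-regulated and 3 down-regulated (1.90% and 2.53% of all genes), and leaving out flat culture 3 gave 2 and 6 (12.5% and 8.99% of all genes).

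Other immediate early genes gave 5 up-regulated and 1 down-regulated of 20 (7.32% and 6.53% of all genes), with a median of 0.68, and 10 and 1 without flat culture 3 (12.5% and 8.99% of all genes). Averaging consecutive reaggregates left 4 and 0 (1.90% and 2.53% of all genes). *Nr4a1*, an orphan nuclear receptor, ranged from 371 to 695 RPM in reaggregates and was at 10.9, 14.8 and 40.8 RPM in flat cultures 1, 2 and 4 and 166 RPM in flat culture 3 (log2 fold change 3.98, limma adjusted p = 0.00110). The log2 fold changes of its relatives *Nr4a3* and *Nr4a2* were 5.28 and 2.37, and that of *Egr3* was 3.36. *Nr4a3* was at 0, 0.477 and 0.486 RPM in flat cultures 1, 2 and 4 and 0.359 RPM in flat culture 3. These values lie near the level of 3 reads, so the size of its change depends on the added 0.5. *Egr2* completed the genes called higher and *Cyr61* was the gene called lower, both named after their values were seen. Of 9 heat shock genes, 3 were up-regulated and 0 down-regulated (7.32% and 6.53% of all genes), and their median log2 fold change was −0.34. The genes called were *Hspb1*, *Hspa1b* and *Hspa1a* (log2 fold changes 3.06, 2.33 and 2.22), the other 6 had negative log2 fold changes, and averaging consecutive reaggregates left 0 of the 3 calls (limma adjusted p from 0.101 to 0.161 with 3 samples). Without flat culture 3 the heat shock counts were 3 higher and 1 lower (12.5% and 8.99% of all genes). *Hspb1* ranged from 39.1 to 125 RPM in reaggregates and was at 30.5, 1.25 and 1.11 RPM in flat cultures 1, 2 and 4 and 51.4 RPM in flat culture 3, so the groups overlapped and the lowest values were those with the de Bruijn label. *Hspa1a* and *Hspa1b* are near-identical copies, so their single values are uncertain.

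For each of the 9 genes, the genes with the most similar profile over the 10 libraries were sought among 12709 genes that reached 5 RPM, by the root mean square difference of centred log2(RPM + 0.5). For *Fosl2* the nearest were *C130039O16Rik*, *Zfp592* and *Crtc3*, at 0.08, 0.10 and 0.11. *Jund* was nearest, at 0.09, to AC162446.1, the gene inside it, whose reads cannot be told apart from those of *Jund*. *Col1a2* and *Col1a1* followed at 0.18 and 0.20. The nearest profiles to *Fosl1* were those of *Amotl2*, *Atp10a* and *Csf1*, at 0.15, 0.23 and 0.25, all higher in each flat culture than in any reaggregate. *Jun* had *Zfp362*, *Mid1* and *Mtss1* at 0.22, 0.22 and 0.24, *Junb* had *6330403L08Rik*, *Crebbp* and *Tecpr1* at 0.21, 0.21 and 0.22, and *Maff* had *1110034A24Rik*, *2610002I17Rik* and *Sav1* at 0.18, 0.18 and 0.19. *Atf3* was less closely matched, by *Col11a1*, *Mmp9* and *Dmp1* at 0.33, 0.39 and 0.57. Outside the 9 genes, *Fos* had no gene nearer than *Tnxb*, *Per1* and *Svep1* at 0.70, 0.73 and 0.74. *Fosb* had none outside them nearer than *Nr4a1*, *Npr3* and *Kif26b* at 0.94, 0.99 and 1.05. *Atf3*, itself among the 9, was nearer to *Fosb* than *Npr3* was. Among the 9 genes themselves, *Fosl2* and *Junb* were the closest pair, at 0.26, and *Fos*, *Fosb* and *Atf3* were each farther than 0.85 from any other member.

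Promoter sequences from RefSeq (GRCm38.p6) were matched by symbol for 8 of the 9 genes, with 10 start sites, and *Fosl1* was not among them. The 250 bases before each start were searched on both strands for the AP-1 site TGANTCA, the cyclic AMP response element TGACGTCA, its variant TGACATCA, the first letters of that element, TGACG, which the full element also contains, and the CArG box bound by serum response factor. TGACG occurred before a start of *Fos*, *Fosb*, *Junb*, *Atf3* and *Maff*, that is in 6 of the 10 windows, and in 17.8% of all 32851 windows of this length. TGACATCA occurred in *Jun* and in *Maff*, and in 2.93% of all windows, and TGACGTCA only in *Maff*, and in 1.55% of all windows. TGANTCA and the CArG box, held by 6.75% and 1.47% of all windows, occurred in 0 of the 10, which says only that these letters are not in these windows. The windows of *Fos*, *Fosb*, *Jun* and *Atf3* are shown because these genes set flat culture 3 apart from the other flat cultures. They are written 5′ to 3′ on the strand of the gene with matches in capitals, and each was found once in NCBIM37/mm9, on the strand of its gene, at chr12:86814590-86814839, chr7:19895395-19895644, chr4:94718914-94719163 and chr1:193007213-193007462.
Fos: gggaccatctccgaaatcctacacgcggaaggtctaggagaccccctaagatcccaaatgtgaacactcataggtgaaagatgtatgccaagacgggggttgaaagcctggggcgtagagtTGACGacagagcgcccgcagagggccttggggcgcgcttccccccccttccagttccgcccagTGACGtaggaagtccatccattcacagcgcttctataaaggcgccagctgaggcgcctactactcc
Fosb: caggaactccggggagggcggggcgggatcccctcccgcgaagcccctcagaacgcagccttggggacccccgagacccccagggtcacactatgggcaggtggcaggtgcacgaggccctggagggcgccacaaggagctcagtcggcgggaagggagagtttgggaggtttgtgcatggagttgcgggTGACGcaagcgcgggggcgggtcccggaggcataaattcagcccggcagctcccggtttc
Jun: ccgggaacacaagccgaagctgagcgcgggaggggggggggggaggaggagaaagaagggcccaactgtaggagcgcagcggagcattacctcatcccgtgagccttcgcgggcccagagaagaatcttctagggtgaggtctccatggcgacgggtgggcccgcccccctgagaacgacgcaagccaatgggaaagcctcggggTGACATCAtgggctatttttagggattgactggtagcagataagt
Atf3: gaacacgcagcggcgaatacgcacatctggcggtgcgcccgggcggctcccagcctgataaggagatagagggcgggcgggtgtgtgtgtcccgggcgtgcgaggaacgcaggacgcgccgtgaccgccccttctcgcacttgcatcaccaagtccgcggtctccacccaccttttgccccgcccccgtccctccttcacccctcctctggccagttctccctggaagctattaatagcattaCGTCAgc
The matches begin 129 and 66 bases before the start in *Fos*, 60 before it in *Fosb*, 45 before it in *Jun* and 7 before it in *Atf3*, where the letters are those of the opposite strand and lie in the last 7 bases of the window, which overlap the annotated transcript. A match describes letters in the genome and no binding was measured.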

How the data were processed

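RNA was sequenced from 6 OP9 reaggregates and 4 flat cultures. The authors aligned reads to NCBIM37/mm9 with TopHat 1.2.0 and Bowtie, summed them per Ensembl gene in GeneProf, shared ambiguous reads between genes, and deposited RPM, which are not divided by gene length. The table also holds the authors' own log2 fold change and adjusted p of reaggregates against flat cultures, 2 columns not used here. Groups, replicate numbers, IL-3 and the de Bruijn label came from the sample labels. The 9 genes and all gene lists were chosen with earlier results of these data known.

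Depth was estimated from the RPM value of 1 read. Of the values from 0.05 to 10 RPM, 63.5% to 65.9% per library were whole multiples of it (within 0.1 reads), so counts were not recovered and no count test was run. Comparisons used log2(RPM + 0.5) and limma 3.58.1 in R 4.3.3 (linear model without covariates, moderated variances with a trend) over the genes above 0.5 RPM in at least 1 of the 10 libraries. The code was tested on simulated data. A gene was called at a 2-fold difference or more with p, adjusted by Benjamini-Hochberg over all genes tested, no greater than 0.05. Named are all 9 genes, up to 4 called genes per list by size of change, the 2 of highest mean RPM where fewer than 2 were called, and the 3 nearest profiles per gene. A gene that this rule names is not reported here and was left out of the screen for libraries set apart, but counts in its list. Coordinates and exon lengths came from GENCODE vM1, a later annotation of the same assembly. Alternatives were other pseudocounts, filters and scalings, no trend, averaged or blocked consecutive reaggregates, a replicate block, subsets of either group, and each library left out. Tables and figures were made with Python 3.11.15, pandas 2.3.3, numpy 2.4.6 and matplotlib 3.10.9.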

Additional observations from a re-analysis of the deposited data

Results flagged for a closer look

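In 6 of 64 groups of values, over the 9 genes and the named genes of the lists, 1 library was set apart from the others of its kind of culture. The cut-offs would flag 5% of groups, or 3.20, if the groups were independent and normally distributed. The same libraries enter all groups and the genes were chosen with earlier results known, so this count is no measure against chance. Flat culture 3 accounted for 5 of the 6. It was above the other flat cultures for *Fos* at 436 RPM, *Fosb* at 284 RPM, *Jun* at 569 RPM, *Atf3* at 31.5 RPM and *Mmp9* at 5.99 RPM. *Nr4a3* was at 60.4 RPM in reaggregate 1, above the other reaggregates, which ranged from 22.4 to 35.3 RPM. The depth of flat culture 3, 8.34 M reads on genes, lay between those of the other flat cultures, at 8.23 to 8.70 M. The cause of these differences was not tested.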

How the results depend on the processing

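Each of the 9 genes kept the sign of its log2 fold change between reaggregates and flat cultures in all 25 alternatives, 1 of which was added after the values were seen. *Fosl1* (−2.16 to −1.35) and *Atf3* (2.83 to 5.34) passed in all 25, and *Jun*, *Fos*, *Fosl2*, *Fosb* and *Jund* did not pass in 9, 8, 5, 4 and 4 of them. *Junb* passed in 2, both without flat culture 3, and *Maff* in 0. Of all genes 2345 were called, and of the 9 genes 6 were called higher and 1 lower. Averaging consecutive reaggregates gave 750 genes, with 1 of the 9 higher, reaggregates without IL-3 alone 819 and 1, and reaggregates with IL-3 alone 637 and 1, each with 3 samples in place of 6. Flat cultures without the de Bruijn label alone gave 1 higher, and those with it alone 4354 genes. Consecutive reaggregates as a random block gave 1446 genes, with 4 of the 9 higher, and *Fos* and *Jun* did not pass (limma adjusted p = 0.0622 and 0.0732). Without each library in turn, 1581 to 3643 genes were called, with 3 to 7 of the 9 higher and 1 lower. The lowest count, 3, was without flat culture 1, where *Fos*, *Fosl2* and *Jun* did not pass, and the highest, 7, without flat culture 3. *Jun* did not pass without flat culture 2 either (limma adjusted p = 0.0612), nor did *Fos* and *Jun* without flat culture 4 (0.0831 and 0.0755) or with no filter on low values (0.0660 and 0.0571 with limma). Scaling moved the median log2 fold change of all genes from 0.04 to −0.02 with quantile normalization and 0.03 with median ratios. With the replicate number as a replicate block 3039 genes were called, again with 6 of the 9 higher and 1 lower. Libraries of the same number did not deviate together (r of deviations across genes from −0.21 to 0.16), so the numbers were not taken to pair them. For IL-3, 0 genes were called in every alternative. Between flat cultures with and without the de Bruijn label, leaving out a library left a lone library in its arm. Those fits assume that it varies like the others and give effect sizes only. With both arms whole, 965 genes were called, 1445 with quantile normalization, 886 with a pseudocount of 1 and 204 with no filter, and 0 of the 9 genes in each. Some settings also differed in the number of samples or of genes tested, and the cause of the changes in these counts was not tested. Depth limits values near 0.319 to 0.409 RPM, or 3 reads, and the lowest value among the 9 genes, 1.46 RPM, lay above it.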
